A study of Rattus norvegicus with 6 samples.

Results

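Stearoyl-CoA desaturase (Scd, also called Scd1) was measured by 2 of the 8799 probe sets on the array, J02585_at and rc_AI175764_s_at, and is 1 of 4736 genes that the platform annotation names by a single symbol. The probe sets were found by that symbol. The gene itself was chosen by its signals in the NASH and Control arrays described here, so its levels, its ranks and its difference between the diets are given as a description without a test. Male Sprague Dawley rats received liquid diets by total enteral nutrition, that is, through a feeding tube, for 3 weeks. The NASH group (nonalcoholic steatohepatitis, 3 samples) had 70% corn oil and a daily energy supply of 220 kcal for each kg of body mass to the power 3/4. The Control group (3 samples) had 5% corn oil and 187 kcal on that basis. Fat content and energy supply differ together between the diets. Liver RNA was hybridized to 1 Affymetrix RG_U34A array per sample. Neither rat age nor separate animals are stated in the labels, so the spread between arrays may be technical.

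Scd is an enzyme of the endoplasmic reticulum that puts a double bond into the saturated fatty acids palmitate and stearate, bound to coenzyme A, and so makes palmitoleate and oleate. It draws electrons from cytochrome b5 and its reductase, and its products go into triglycerides, phospholipids and cholesterol esters. In rodent liver its transcript is known to be raised by insulin, carbohydrate and the transcription factor SREBP-1c and to be lowered by dietary polyunsaturated fat, of which corn oil is rich. Rodents carry several Scd genes. In the rat reference (GRCr8) Scd3, Scd2, Scd4 and Scd follow one another on chromosome 1, with 0 other protein-coding genes between them.

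The 4 neighbours differ in the letters next to their annotated starts, which are shown here as a description. Whether these letters bear on the signals below was not tested. Promoter windows of 300 bases (250 before and 50 after the start, from RefSeq, GRCr8) were searched on both strands for ATAAAAGG, a TATA-like run, and for CCAAT, the letters bound by the factor NF-Y; these motifs do not overlap. ATAAAAGG stood once in the Scd window and once in the Scd3 window and was not found in those of Scd2 and Scd4, and 1.62% of all 33469 windows held it. CCAAT stood in 37.5% of all windows, 2 times in that of Scd2, once on each strand in that of Scd3, once on the opposite strand in that of Scd4 and not in that of Scd. Stretches of 30 bases follow, with the motif in capitals, for Scd (chr1:253231866-253231895, minus strand), Scd3 (chr1:253028014-253028043, plus strand) and Scd2 (chr1:253118268-253118297, plus strand).
Scd: gctggcaacagATAAAAGGggtctgaggaa
Scd3: gctggcagtatATAAAAGGttcatgaggaa
Scd2: gattgtgcagagCCAATgagagcagcagga
The run begins 153 bases before the annotated start of the Scd window and 28 bases before that of Scd3. That Scd start lies 370 bases inside the outer end of the annotated gene, so the window may not hold the start used in liver.

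All 6 arrays carried the liver markers fixed for this check. All 11 measured hepatocyte genes, among them Alb and Ttr, passed the intensity filter on dim probe sets, and their summed normalized signal lay between 41638 and 43122 in NASH and between 41560 and 45876 in Control. NASH 2 stood apart by transcripts of other tissues, foremost fat and muscle. The 9 measured fat markers summed to 4335 in NASH 2, 547 in NASH 1 and 669 in NASH 3, with 482 to 496 in Control, and all 9 were highest in NASH 2. The 11 measured muscle markers summed to 2737 in NASH 2, 207 in NASH 1 and 241 in NASH 3, with 166 to 263 in Control, and 9 of the 11 were highest in NASH 2. Leukocyte markers summed to 828 in NASH 2, against 416 to 592 on the other arrays, with 7 of 10 highest there. Stellate cell and cholangiocyte markers summed to 733, against 227 to 521, with 2 of 7 highest there. Control 2 stood apart by some listed genes of fasting and the daily clock, but not by all of them. Sds, an amino acid-degrading enzyme, had a log2 level of 10.84 there and of 5.33 in Control 1 and 6.39 in Control 3, and the clock factor Bmal1 had 2.04, against 6.22 and 6.12 in Control 1 and Control 3. The gluconeogenic Pck1 and Cpt1a of fat oxidation were also higher in Control 2 than in Control 1 and Control 3. Pdk4, which blocks pyruvate oxidation in fasting, was instead lowest in Control 2, at 2.402 against 4.81 and 3.69. The clock gene Per2 (5.33) lay between Control 1 (5.504) and Control 3 (4.57). These genes thus do not point to 1 state of Control 2. What sets NASH 2 and Control 2 apart was not tested. The 15 pairs of arrays had log2 correlations from 0.930 to 0.970.

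Scd was far lower in livers of the NASH diet than in Control livers with both probe sets. The deposited signal of J02585_at was 459 in NASH 1, 244 in NASH 2 and 78.0 in NASH 3, against 5979 in Control 1, 2142 in Control 2 and 5443 in Control 3. The groups did not overlap, and the lowest Control array was 4.66-fold above the highest NASH array. In log2 of the quantile-normalized signal plus an offset of 2.21, the scale used from here on, the level averaged 7.78 ± 0.98 in NASH and 11.92 ± 0.58 in Control (SD, n = 3 each). The difference of NASH minus Control was −4.13, or 17.6-fold lower in NASH. In whole liver, fewer cells of a type and less RNA per cell cannot be told apart.

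The second probe set, rc_AI175764_s_at, was dimmer throughout. Its deposited signal was 38.4 in NASH 1, 9.73 in NASH 2 and 2.35 in NASH 3, against 770 in Control 1, 278 in Control 2 and 281 in Control 3. Again the groups did not overlap, with 7.22-fold between the lowest Control and the highest NASH array. On the log2 scale it averaged 3.73 ± 1.43 in NASH and 8.57 ± 0.62 in Control (SD, n = 3 each), a difference of −4.84 or 28.7-fold. In NASH 3 its signal was near the offset, which is the 10th percentile of all deposited signals, so the size of this fold depends on the offset. With an offset of 16 the difference was −3.76, and with an offset of 1 it was −5.03, while that of J02585_at was −4.04 and −4.14.

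**Figure D1:**
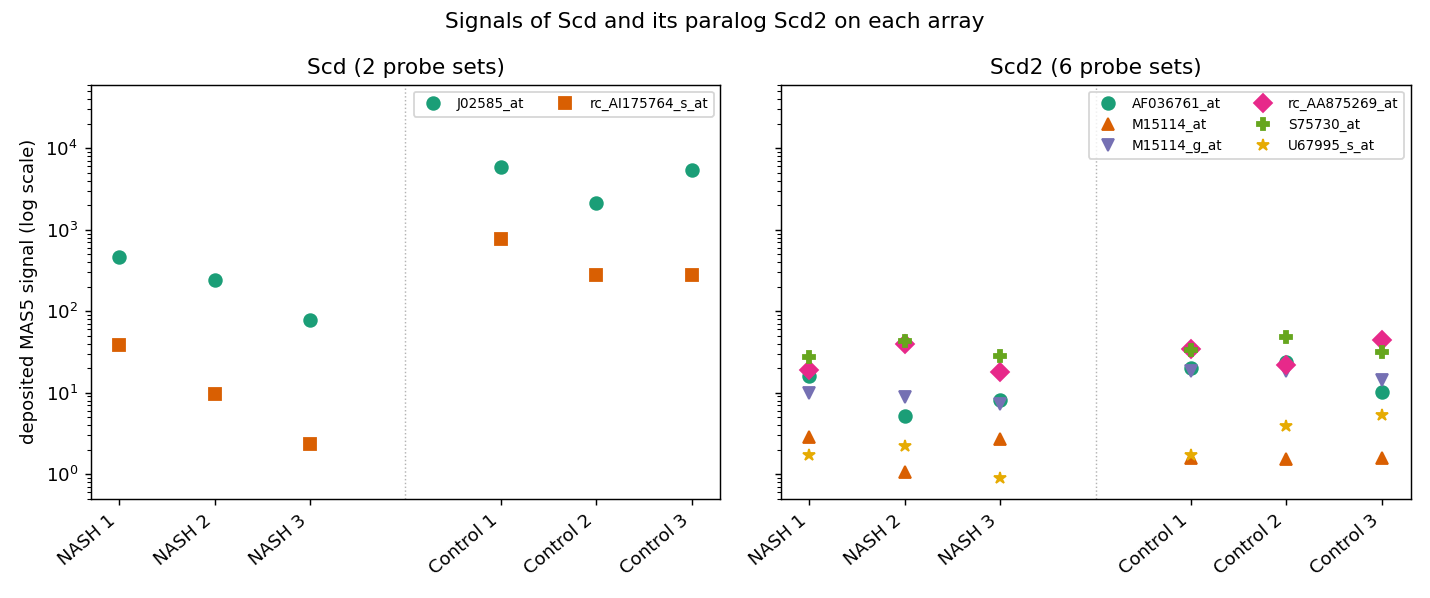
Deposited MAS5 signal on a log axis for each of the 3 NASH and 3 Control arrays, with 1 point per array and probe set, for Scd on the left and for its paralog Scd2 on the right. Both Scd probe sets lie lower in all NASH arrays than in any Control array, while the 6 Scd2 probe sets stay below a signal of 50 on all arrays.

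Both probe sets gave the same order within NASH, with NASH 1 highest and NASH 3 lowest. In deposited signals, before scaling between arrays, the highest was 5.89 times the lowest for J02585_at and 16.4 times for rc_AI175764_s_at. The second ratio divides by the NASH 3 signal near the offset. On the log2 scale J02585_at had 8.64 in NASH 1 and 6.72 in NASH 3, and rc_AI175764_s_at had 5.28 and 2.46. Within Control the corresponding ratios of deposited signals were 2.79 and 2.77. Control 2 was the lowest Control array for J02585_at, and Control 2 and Control 3 were close together for rc_AI175764_s_at, with 8.32 and 8.12 on the log2 scale.

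By brightness, both Scd probe sets ranked lower in NASH livers than in Control livers, where J02585_at stood near the top. Ranks order signals, and because probes differ in how well they bind, they do not order transcript amounts. J02585_at ranked 710th, 968th and 1737th of 8799 probe sets in NASH 1, 2 and 3, against 28th, 117th and 27th in Control 1, 2 and 3. By group mean of normalized signals it was 978th in NASH and 46th in Control, within the top 11.1% and 0.523%. The probe set held 0.0301%, 0.0188% and 0.00712% of the summed signal of NASH 1, 2 and 3, against 0.345%, 0.168% and 0.384% of that of Control 1, 2 and 3. By group mean rc_AI175764_s_at was 5017th in NASH and 706th in Control. A set for comparison was cut at the Control rank of J02585_at itself, so where J02585_at stands in it is a description that follows in part from that choice. Of the 46 probe sets that were brightest in Control, J02585_at included, 38 were still within the first 46 in NASH, and only J02585_at was lower in NASH by more than 1 on the log2 scale. The next lowest difference among them was −0.43 and their median was −0.03. Among the 5244 probe sets tested, whose median difference was −0.02, the 2 Scd probe sets had the lowest differences. Of these, rc_AI175764_s_at averaged 3.73 in NASH, below the intensity filter, which it passed through its Control levels. All J02585_at levels lay above the filter.

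NASH 2, which carried the fat and muscle transcripts, lay between the other NASH arrays for both probe sets. Fat tissue also makes Scd. Without NASH 2 the differences were −4.26 for J02585_at and −4.74 for rc_AI175764_s_at, and without both NASH 2 and Control 2 they were −4.61 and −4.97. Instrument records of the wash, whose part in the result beyond these values was not tested, were filled for NASH 1, NASH 2, Control 1 and Control 3 and blank for NASH 3 and Control 2. Among the 4 arrays with a filled record the J02585_at difference was −3.94, and between NASH 3 and Control 2 it was −4.53. The corresponding values of rc_AI175764_s_at were −4.34 and −5.86. Over all 14 alternatives run for it, the J02585_at difference lay between −3.60 (without NASH 3) and −4.61, and that of rc_AI175764_s_at lay between −3.76 and −5.59 (without NASH 1).

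**Figure D2:**
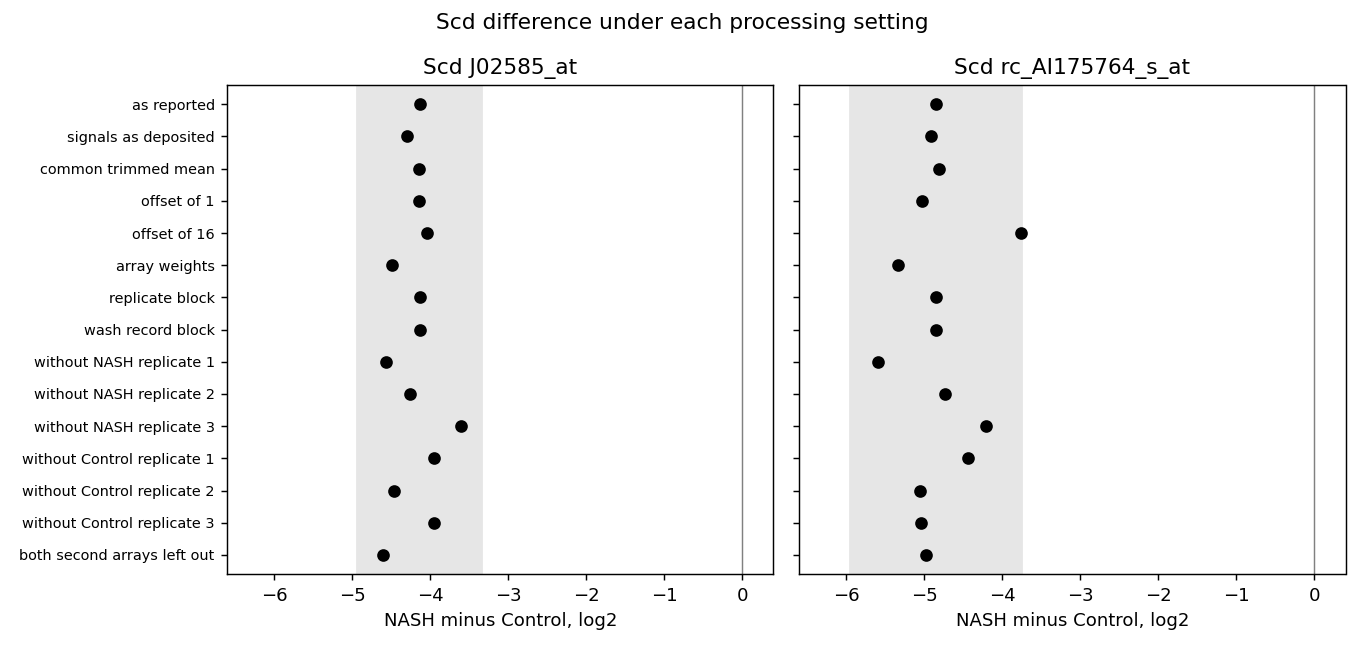
NASH minus Control difference of each Scd probe set on the log2 scale (points) under the processing reported and 14 alternatives, with 1 pooled within-group SD on either side of the reported value in grey. All values are negative, between −3.60 and −4.61 for J02585_at and between −3.76 and −5.59 for rc_AI175764_s_at.

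The paralog Scd2, which also makes monounsaturated fatty acids and is the main form in rodent brain, was dim in both diets, and its tested probe sets did not pass the test. Of its 6 probe sets, 2 passed the intensity filter. The brighter, S75730_at, had deposited signals of 27.8, 43.0 and 27.9 in NASH 1, 2 and 3, against 33.1, 48.1 and 31.5 in Control 1, 2 and 3. The groups overlapped, and the difference was −0.05 ± 0.26 (standard error; limma adjusted p = 0.966). The other, rc_AA875269_at, differed by −0.23 ± 0.36 (limma adjusted p = 0.894), with signals of 17.9 to 39.6 in NASH and 22.1 to 44.2 in Control. The remaining 4 lay below the filter, with differences from −0.73 (M15114_g_at) to 0.31 (M15114_at). On the log2 scale M15114_g_at had 3.54, 3.33 and 3.61 in NASH 1, 2 and 3 and 4.21, 4.23 and 4.22 in Control 1, 2 and 3. Its groups did not overlap, and 7.76% of all probe sets tested lay below Control in the same way. One further probe set, AF036761_g_at, carries the symbols of all 4 rat desaturase genes and belongs to none of them here. Its signals were 4.65, 6.84 and 5.61 in NASH 1, 2 and 3 and 245, 42.6 and 61.1 in Control 1, 2 and 3. Its difference of −3.32 was the lowest after those of Scd among the probe sets tested. In NASH it averaged 3.05 on the log2 scale, below the intensity filter, which it passed through its Control levels. The size and place of this difference thus rest on dim NASH signals. AF036761_at, annotated to Scd2 alone, differed by −0.68.

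The genes that supply Scd with electrons did not pass the test. Of 11 listed desaturases and electron carriers, 5 were tested, Scd2 among them, and 0 were called by limma at an adjusted p under 0.05, where 7 of all 5244 probe sets, or 0.133%, were called; 0 of the 5 had an unadjusted p under 0.05. Cyb5a, the cytochrome b5 of the endoplasmic reticulum, had levels of 10.90, 10.63 and 11.003 in NASH 1, 2 and 3 and of 11.09, 10.93 and 10.46 in Control 1, 2 and 3, a difference of 0.02 ± 0.19 (limma adjusted p = 0.981) that turned to −0.18 without scaling between arrays. Its other 2 probe sets differed by 0.31 and −0.13. Cyb5r3, the reductase that feeds cytochrome b5, differed by −0.22 ± 0.16 without overlap between the groups (limma adjusted p = 0.726), while its other 4 probe sets overlapped and differed by −0.06 to 0.15. Cyb5b, a mitochondrial cytochrome b5, differed by 0.87 ± 0.42, also without overlap (limma adjusted p = 0.619), and by 0.36 without Control 2. Of all probe sets tested, 7.76% lay below Control without overlap, as Cyb5r3 did, and 6.54% lay above, as Cyb5b did. A second Cyb5b probe set overlapped and differed by 0.15. The median difference over the 5 genes was 0.02, and over all probe sets tested it was −0.02. Fads1, Fads2 and Elovl6, which desaturate and elongate alongside Scd, were not analysed here. Of the elongation genes, Elovl5, which lengthens polyunsaturated fatty acids, differed by 0.62 ± 0.35, Hsd17b12 by 0.06 ± 0.24 and Hacd3 by −0.10 ± 0.18, with limma adjusted p-values of 0.652, 0.960 and 0.910. Without Control 2 the Elovl5 difference was 0.16.

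The enzymes that make palmitate, the precursor of the Scd substrates, were not lower by the size seen for Scd. Of 10 listed, 6 were tested and 0 were called by limma, with 0 at an unadjusted p under 0.05 and a median difference of −0.14. Without Control 2 all 6 were lower in NASH and the median was −0.63, and over the fits without another array it lay between −0.30 (without NASH 2) and 0.15 (without Control 1). The fatty acid synthase Fasn had levels of 6.98, 9.14 and 6.91 in NASH 1, 2 and 3, against 8.82, 6.43 and 7.33 in Control 1, 2 and 3. The groups overlapped widely, and the difference was 0.15 ± 0.74 (limma adjusted p = 0.965), from −0.59 without NASH 2 to 0.79 without Control 1. A second Fasn probe set differed by −0.22. Acly, which supplies cytosolic acetyl-CoA, differed by −0.46 ± 0.60, the malic enzyme Me1, which supplies NADPH, by −0.01 ± 0.68, and the carboxylase Acaca by 0.13 ± 0.40. Slc25a1, the mitochondrial citrate carrier, differed by −0.49 ± 0.26 and Acacb by −0.27 ± 0.43. Limma adjusted p-values of these 5 lay between 0.647 and 0.997.

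With J02585_at, Scd was lower in Control 2 than in Control 1 and Control 3, as were several of these genes. They differed in how Control 2 stood against the NASH arrays. In Control 2 Fasn (6.43), Acly (8.38), Me1 (5.63) and Insig1 (8.83) were each below every NASH array. Insig1 is a sensor that holds SREBP in the endoplasmic reticulum and is itself an SREBP target. Of the 6 palmitate genes 4 were so, Acaca included, while Slc25a1 (8.56) and Acacb (4.04) were not. Acaca was below every NASH array in Control 3 (3.68) as well as in Control 2 (3.98). The share of all probe sets that were lower in Control 2 than in every NASH array was not computed, so the count is a description. Scd was above every NASH array there, at 11.25. Control 2 minus the mean of Control 1 and Control 3 was −1.65 for Fasn, −2.40 for Acly, −2.71 for Me1, −1.94 for Insig1 and −1.01 for Scd. The mean of NASH minus Control 2 was positive for the same 4 genes, 1.25 for Fasn, 1.13 for Acly, 1.79 for Me1 and 1.44 for Insig1, and was −3.46 for Scd. Leaving out Control 2 gave differences of −1.25 for Acly, −0.93 for Me1 and −0.49 for Insig1. Fasn was at 9.14 in NASH 2 and 8.82 in Control 1, while Scd was at 7.99 and 12.24 on the same arrays.

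**Figure D3:**
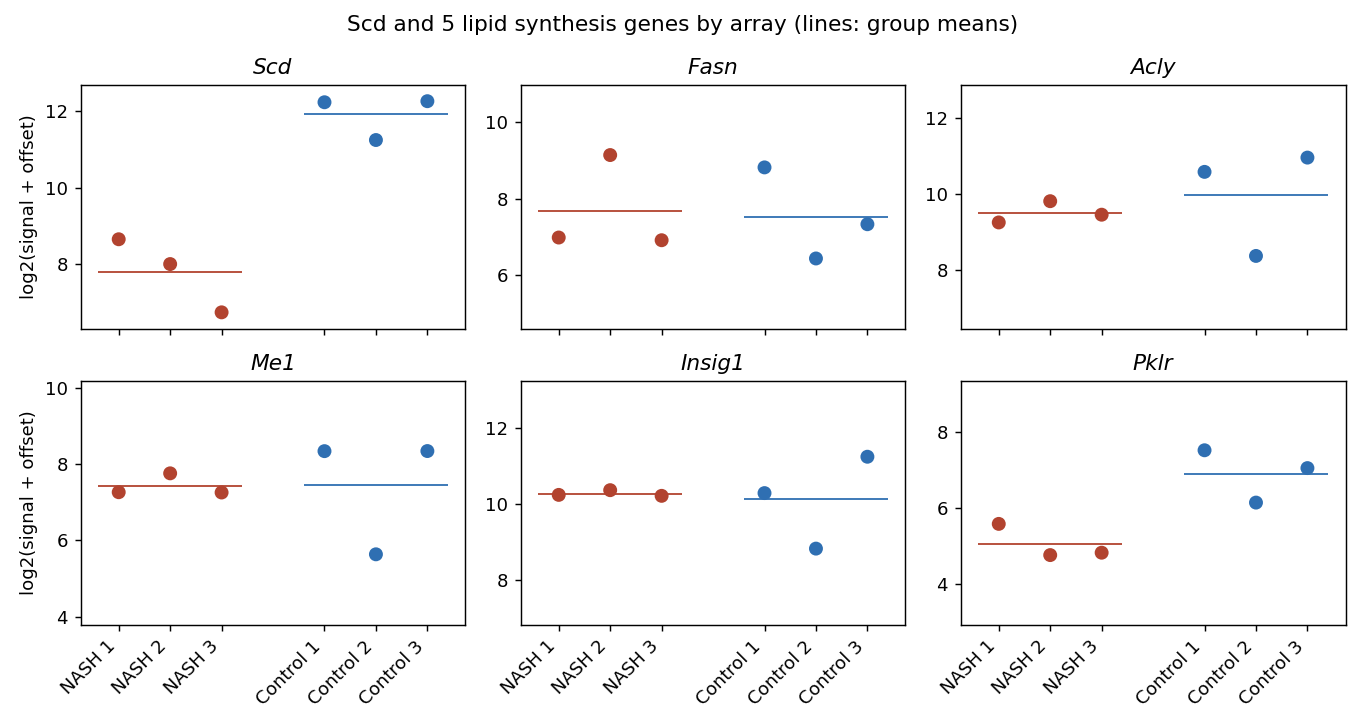
Log2 level (quantile-normalized signal plus offset) of Scd and 5 genes of lipid synthesis on each NASH (red) and Control (blue) array, with group means as lines and the same span on every axis. In Control 2 Fasn, Acly, Me1 and Insig1 lie below every NASH array, while Scd and Pklr lie above every NASH array.

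Genes known from rat liver to be lowered by polyunsaturated fat did not pass the test, and their median moved with the array left out. Of 14 listed, 7 were tested, with 0 called by limma and a median difference of −0.01. Without Control 2 all 7 were lower in NASH and the median was −0.49, against −0.02 for all probe sets tested. It was −0.26 without NASH 2 and 0.24 without Control 1. Pklr, the liver pyruvate kinase of glycolysis, had the lowest difference of the 7. Its levels were 5.59, 4.77 and 4.83 in NASH 1, 2 and 3 and 7.52, 6.15 and 7.06 in Control 1, 2 and 3, without overlap, and it differed by −1.84 ± 0.38 (limma adjusted p = 0.208). It was the 1 member of the 7 lower at an unadjusted p under 0.05, where 4.04% of all probe sets tested were lower by that rule. Srebf1, which encodes the SREBP-1 factor, differed by −0.35 ± 0.20 without overlap (limma adjusted p = 0.652), so that 2 of the 7 lay below Control in every NASH array, against 7.76% of all probe sets tested.

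Of 36 listed regulators of Scd, 28 were on the array and 24 passed the filter, of which 0 were called by limma. Their median difference was −0.12, with 16 lower and 8 higher, and 1 had an unadjusted p under 0.05. That was Rxra, a retinoid X receptor that pairs with the receptors LXR and PPAR, at 0.54 ± 0.23, where 3.81% of all probe sets tested were higher by the same rule. Rxrb, another retinoid X receptor, went the other way at −0.51 ± 0.27, with overlap between the groups. LXR-alpha (Nr1h3), the oxysterol receptor that drives Srebf1 and Scd, differed by −0.05 ± 0.27, and LXR-beta (Nr1h2) by −0.45 ± 0.24. Insig1 differed by 0.15 ± 0.52, and by −0.03 without scaling between arrays. Ppara, the fatty acid-sensing receptor, differed by −0.61 ± 0.37 and Akt2, a kinase of insulin signalling, by 0.46 ± 0.21. Akt2 was the 1 regulator above Control in every NASH array, against 6.54% of all probe sets tested. Limma adjusted p-values of the regulators named in this paragraph lay between 0.619 and 0.966.

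**Figure D4:**
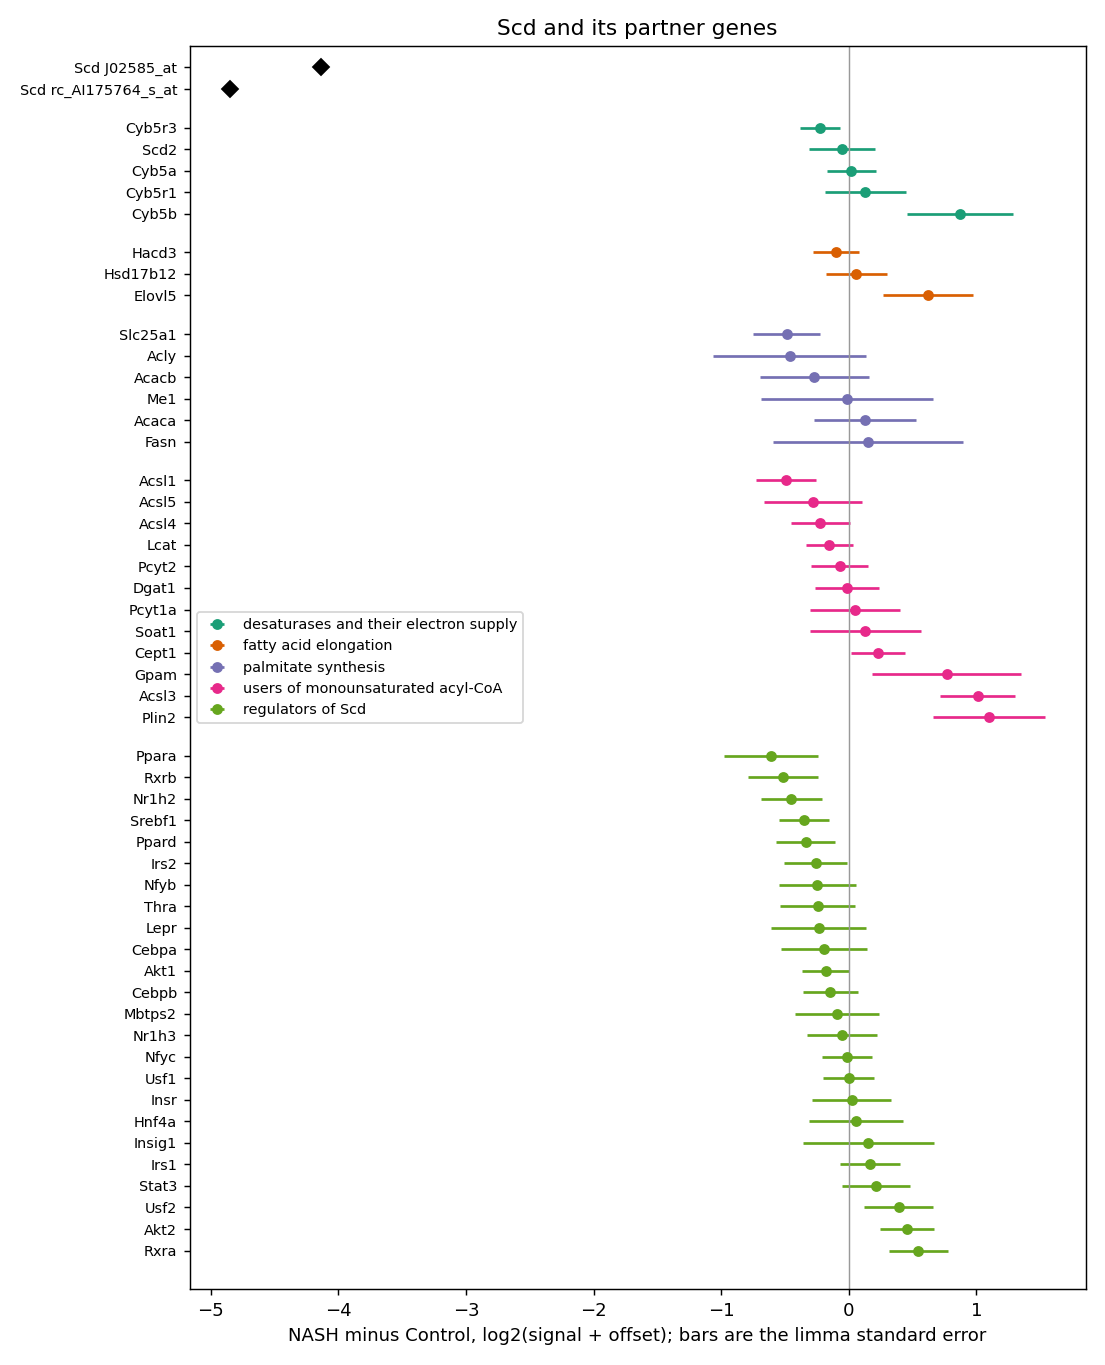
NASH minus Control differences on the log2 scale for the 2 Scd probe sets (black) and for tested partner genes by list (colours), with limma standard errors as bars for the partners. The Scd points lie at −4.13 and −4.84, and the partner genes of these 5 lists lie between −0.61 (Ppara) and 1.10 (Plin2).

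Among enzymes and coat proteins that use or store monounsaturated acyl chains, 6 were higher and 6 lower in NASH. Of 26 listed, 12 were tested, with 0 called by limma, a median of 0.02, and 2 higher at an unadjusted p under 0.05, where 3.81% of all probe sets tested were higher by that rule. Those were Plin2, a coat protein of lipid droplets, at 1.10 ± 0.44 (limma adjusted p = 0.594) and the acyl-CoA synthetase Acsl3 at 1.01 ± 0.29 (adjusted p = 0.452). Plin2 had 9.65, 9.59 and 10.02 in NASH 1, 2 and 3 and 9.28, 7.53 and 9.15 in Control 1, 2 and 3, and differed by 0.53 without Control 2. A second Plin2 probe set differed by 0.29. The acyltransferase Gpam differed by 0.77 ± 0.58, Acsl1 by −0.49 ± 0.23, Acsl4 by −0.22 ± 0.23 and the phospholipid enzyme Cept1 by 0.23 ± 0.21, with limma adjusted p-values from 0.619 to 0.822. The Gpam difference ran from 0.095 without Control 3 to 1.45 without Control 1. The 4 Acsl1 probe sets disagreed in sign, from −0.49 to 0.71.

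Among genes of the fasting and clock state, of which 11 of 20 listed were tested, 1 was called, where 0.133% of all probe sets tested were called, and it was lower in NASH. Igfbp1, a binding protein of insulin-like growth factors that insulin represses, had 5.18, 4.91 and 5.03 in NASH 1, 2 and 3 and 6.51, 7.003 and 6.88 in Control 1, 2 and 3. It fell by 1.76 ± 0.21 on the log2 scale (limma adjusted p = 0.0342). The call held in 5 of 16 alternatives and in none that left out an array, with adjusted p from 0.00968 to 0.224. Pdk4, which blocks pyruvate oxidation in fasting, differed by 1.97 ± 0.57 and Sqle of sterol synthesis by 2.08 ± 0.71 (limma adjusted p = 0.452 and 0.538), both above Control without overlap, as were 6.54% of all probe sets tested. Pdk4 was dim in Control, with 4.81, 2.402 and 3.69 in Control 1, 2 and 3, and differed by 1.18 with an offset of 16 and by 2.13 with an offset of 1. Without Control 2 the difference was 1.16 for Sqle and 1.83 for Pck1, and without Control 1 that of Pck1 was 0.68. Cpt1a, the entry step of mitochondrial fat oxidation, differed by 0.90 ± 0.39, the gluconeogenic Pck1 by 1.12 ± 0.55 and the clock gene Per2 by −0.89 ± 0.34, with limma adjusted p-values between 0.582 and 0.619. In all, 62 partner genes of the 7 lists were tested and Igfbp1 was the only one called.

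The genes whose profile over the 6 arrays was most like that of Scd were found by the root mean square distance between log2 profiles, each centred on its own mean, with J02585_at as the pattern. These genes were selected on that pattern, so no test is given. The second Scd probe set lay at a distance of 0.64, and the median over all probe sets tested was 2.18. Closest among other genes was Apoa4, an apolipoprotein of triglyceride-rich particles, at 1.01. It had 7.75, 7.39 and 6.24 in NASH 1, 2 and 3, against 9.30, 9.31 and 9.45 in Control 1, 2 and 3, with NASH 3 lowest as for Scd. Fabp5, a fatty acid binding protein, followed at 1.22, then Pklr (1.23), Nupr1, a nuclear protein of the stress response (1.27), and Tkfc, which phosphorylates fructose-derived glyceraldehyde (1.31). Their NASH minus Control differences lay between −2.23 (Apoa4) and −1.70 (Tkfc), against −4.13 for Scd. Fabp5 overlapped between the groups, with 6.403 in NASH 2 and 6.24 in Control 2.

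With the sign of the Scd profile turned, Acot2, a mitochondrial acyl-CoA thioesterase, lay at a distance of 0.73, with 7.45, 6.85 and 7.82 in NASH 1, 2 and 3 and 4.42, 4.28 and 3.67 in Control 1, 2 and 3. Eci1, an isomerase in the oxidation of unsaturated fatty acids, lay at 0.97 and 1.20 with 2 probe sets, and the isoprenoid enzyme Idi1 lay at 1.06. The fatty acid transporter Cd36 was also among the 5, but its Control levels of 2.83, 2.51 and 2.14 lay below the filter of 3.94, which it passed through its NASH levels, so its distance rests on dim signals. Of these, Acot2 and both Eci1 probe sets were highest in NASH 3 and lowest in Control 3, while Cd36 was highest in NASH 2. The Acot2 level in Control 3 (3.67) also lay below the filter. On the log2 scale J02585_at was lowest in NASH 3 and highest in Control 3, with 12.27 against 12.24 in Control 1. In deposited signals Control 1 was highest, with 5979 against 5443 in Control 3, and rc_AI175764_s_at had its lowest Control level in Control 3 (8.12). All these genes were picked for closeness to the turned J02585_at profile, so a shared order of arrays is no separate result. These 6 points per profile share their arrays and the separation of the groups.

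**Figure D5:**
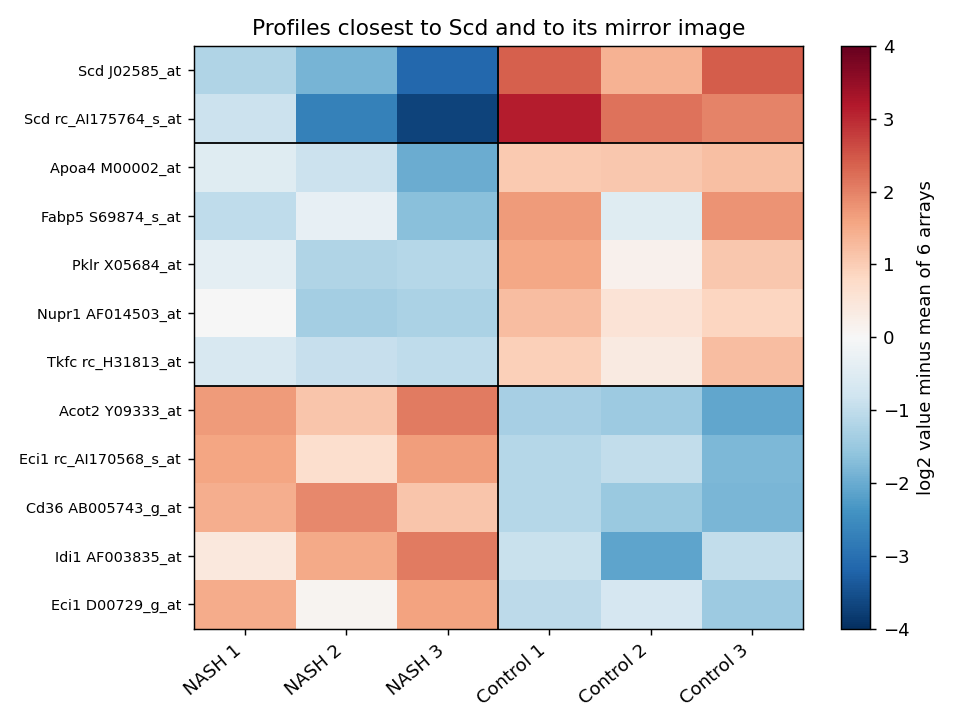
Log2 values minus the mean of the 6 arrays (colour) for the 2 Scd probe sets (top), the 5 closest profiles of other genes (middle) and the 5 closest to the Scd profile with its sign turned (bottom). Scd is low in all NASH and high in all Control arrays, as are Apoa4, Pklr, Nupr1 and Tkfc at smaller size, and Acot2, Eci1, Cd36 and Idi1 run the other way.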

How the data were processed

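Liver RNA of 3 NASH and 3 Control samples was measured on 1 array each, with samples grouped by title because all descriptions repeat that of the first Control sample. The deposited values are linear signal intensities, made with MAS5 per the submitters' processing notes; its settings and detection calls were not used here. The instrument records deposited by the authors hold other information (tissue, array type, wash and scan), per the file headers. Arrays differed in scale (trimmed means, 2% trimmed, of 73.6 to 117), so signals were quantile normalized and set to log2 after adding the 10th percentile of deposited signals (2.21), which understates changes of dim probe sets. Of 8740 non-control probe sets, 5244 with mean log2 above the 40th percentile (3.94) were tested with limma 3.58.1 in R 4.3.3 (lmFit, then eBayes with trend; degrees of freedom 4 residual, 3.90 prior; no covariates) and called at a Benjamini-Hochberg adjusted p under 0.05; 3 arrays per group limit the precision. The fit was tested on simulated data with 200 shifted probe sets. Symbols came from the platform annotation (7006 probe sets with 1 symbol, 308 with several, 1426 not listed) and 0 were altered by the RefSeq table.

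For a gene with several probe sets the brightest was used. Scd, the gene lists and the tests were chosen with earlier results of these data known. The text names all Scd probe sets, from each list the members with the lowest unadjusted p (6 at most), Scd2 and a fixed set of lipid genes, the 5 closest profiles and the 5 closest with the sign turned, and markers in which an array stands apart. Other settings tried were the scaling, the offset, no filter, no trend, weighted arrays, 2 kinds of block, another probe set per gene, and arrays left out. Deviations of same-numbered arrays correlated at 0.05, −0.02 and 0.07, and those of other pairs between −0.13 and 0.08. Equal replicate numbers thus showed no sign of a pairing, but values this small cannot settle whether samples share an origin.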

Additional observations from a re-analysis of the deposited data

How the results depend on the processing

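Neither Scd difference changed sign or moved by 1 pooled within-group SD (0.80 and 1.10) in any of its 14 alternatives. With 1 array left out, the difference lay between −4.57 and −3.60 for J02585_at and between −5.59 and −4.20 for rc_AI175764_s_at. The count of calls was less stable: 7 as reported, 14 for signals as deposited, 18 with array weights, 16 without both NASH 2 and Control 2, 3 without the intensity trend, 3 with the wash record as a block, 1 with the replicate number as a block, and 0 without the filter (633 at an unadjusted p under 0.05). It was 0 to 17 with 1 array left out, 17 without NASH 2, and 265 to 511 had an unadjusted p under 0.05 in those fits. The cause was not tested. The replicate block left the Scd differences at −4.13 and −4.84, and by the labels same-numbered samples share only that number.

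The 1 partner gene called, Igfbp1, was called in 0 fits with 1 array left out (lowest and highest count 0), and in 0 without the filter, without the trend, with either block, or without both NASH 2 and Control 2, by limma in each, where 5 to 13 partner genes had an unadjusted p under 0.05. Its difference stayed between −1.42 and −1.89. Among partner genes, 8 of 35 turned sign in at least 1 alternative that kept all arrays or left out both second arrays, and 11 did with 1 array left out; none of those 11 was called. With signals as deposited, Cyb5a differed by −0.18, Hsd17b12 by −0.073, Fasn by −0.085 and Insig1 by −0.027, and with a common trimmed mean Cyb5a differed by −0.011. With array weights, Scd2 differed by 0.067, Cyb5a by −0.050, Acaca by −0.27, Fasn by −0.85, Acsl4 by 0.0051 and Nr1h3 by 0.034. Without both NASH 2 and Control 2, Scd2 differed by 0.0082, Hsd17b12 by −0.056, Acaca by −0.034, Fasn by −1.16 and Insig1 by −0.53. With 1 array left out, differences ranged for Cyb5r1 from −0.077 to 0.42, Scd2 from −0.18 to 0.13, Cyb5a from −0.16 to 0.15, Hsd17b12 from −0.15 to 0.25, Acly from −1.25 to 0.032, Acacb from −0.66 to 0.052, Acaca from −0.15 to 0.54, Fasn from −0.59 to 0.79, Me1 from −0.93 to 0.44, Insig1 from −0.49 to 0.71 and Nr1h3 from −0.27 to 0.16. The list medians without 1 array were added after seeing the data. Signals near the offset have no reliable fold, and detection calls were not used here.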
